A study of Mus musculus with 6 samples.

Results

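A set of 10 imprinted mouse genes, chosen by name, was followed through the H3K79me2 peak lists: the noncoding RNA genes Meg3, Rian, Mirg, Kcnq1ot1 and H19 and the protein-coding genes Dlk1, Igf2, Snrpn, Peg3 and Peg10. They are 10 of the 55450 genes in the GENCODE M21 mouse annotation, all 10 were found there, and 18781 genes of that annotation had a covered base in at least 1 library. Chromatin immunoprecipitation and sequencing with an H3K79me2 antibody had been done in N2a, a mouse neuroblastoma cell line. Cells carried either the plasmid pLKO.1-shCTR with a non-targeting short hairpin RNA (CTR) or pLKO.1-shNpm1 whose single hairpin targets Npm1 (NPM1 KD), and collection followed 3 days later. Each group had 2 libraries from separate transfections, here called CTR 1, CTR 2, KD 1 and KD 2 (NPM1 KD 1 and NPM1 KD 2 in the plots). Puromycin, which keeps cells that took up the plasmid, is stated for the knockdown experiments. NPM1, nucleophosmin, is a nucleolar histone chaperone, and the comparison asks how its depletion alters where H3K79me2 lies.

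Imprinted genes are expressed from only the maternal or only the paternal copy, and most sit in clusters steered by a differentially methylated control region. Long noncoding RNAs often run through these clusters: Kcnq1ot1 is made from the paternal copy inside Kcnq1 and silences its neighbours there, while Meg3, Rian and Mirg come from the maternal copy downstream of the paternally expressed Dlk1. H3K79me2 is placed by the methyltransferase DOT1L over the beginning and body of transcribed genes, in step with elongating RNA polymerase II. The peak lists do not separate the parental copies, and they carry no strand. A peak where genes overlap therefore belongs to the place and not to a single gene.

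Every value refers to a window made of the gene body and 3 kb upstream of its start. The covered share is the percentage of that window lying under the broad peaks of a library, on mouse build mm10 (GRCm38). The lists held 34845 to 48764 broad and 73801 to 88348 narrow peaks per library. They give no read totals. The fold and the p-value of each narrow peak yield the number of fragments stacked at its summit and the background set against it. Within a library 97.5% to 99.7% of narrow peaks had the same background, so it did not follow their surroundings. That background was 11.9 fragments for CTR 1, 7.65 for CTR 2, 8.99 for KD 1 and 11.8 for KD 2, so CTR 2 was the shallowest library. As a check on the cells, the windows of the sympathetic neuroblast markers Phox2a and Hand2 were covered to 100% in every library, and 0 of 7 marker genes of blood, liver, muscle, endothelium, astrocytes and keratinocytes had a broad peak in any. The Npm1 window was covered to 89.1% and 88.4% in CTR and to 88.6% and 89.1% in NPM1 KD. The lists hold no RNA values, so they cannot check the knockdown itself. The authors report immunoblots of the sequenced replicates with less NPM1 and more H3K79me2 after knockdown.

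The sequences at the starts of the genes show where the mark met the promoters. For 8 of the 10 genes the RefSeq promoter table (build GRCm38.p6) holds at least 1 stretch of 300 bases, from 250 before a start to 50 after it. The 5 shown are written 5′ to 3′ along the gene, and capitals mark the bases under a broad peak in all 4 libraries. They were chosen because they span the range from full to no cover.
Kcnq1ot1, chr7:143296498-143296797, minus strand: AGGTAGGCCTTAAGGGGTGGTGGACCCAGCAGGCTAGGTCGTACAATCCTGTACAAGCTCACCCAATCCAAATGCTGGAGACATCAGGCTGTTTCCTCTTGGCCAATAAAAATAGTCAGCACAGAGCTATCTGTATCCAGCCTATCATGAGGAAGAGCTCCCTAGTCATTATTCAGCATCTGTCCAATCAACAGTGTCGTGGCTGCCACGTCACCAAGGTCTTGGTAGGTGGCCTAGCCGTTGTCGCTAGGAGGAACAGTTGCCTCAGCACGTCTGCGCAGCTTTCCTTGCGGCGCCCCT
Peg3, chr7:6730370-6730669, minus strand: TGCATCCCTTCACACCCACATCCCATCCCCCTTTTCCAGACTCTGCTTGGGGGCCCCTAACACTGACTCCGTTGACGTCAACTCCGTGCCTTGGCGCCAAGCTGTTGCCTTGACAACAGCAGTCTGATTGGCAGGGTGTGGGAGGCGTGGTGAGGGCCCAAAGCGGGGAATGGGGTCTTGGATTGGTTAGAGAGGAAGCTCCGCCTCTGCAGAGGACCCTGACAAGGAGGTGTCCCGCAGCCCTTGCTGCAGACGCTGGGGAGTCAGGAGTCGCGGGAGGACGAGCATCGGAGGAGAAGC
Dlk1, chr12:109452573-109452872, plus strand: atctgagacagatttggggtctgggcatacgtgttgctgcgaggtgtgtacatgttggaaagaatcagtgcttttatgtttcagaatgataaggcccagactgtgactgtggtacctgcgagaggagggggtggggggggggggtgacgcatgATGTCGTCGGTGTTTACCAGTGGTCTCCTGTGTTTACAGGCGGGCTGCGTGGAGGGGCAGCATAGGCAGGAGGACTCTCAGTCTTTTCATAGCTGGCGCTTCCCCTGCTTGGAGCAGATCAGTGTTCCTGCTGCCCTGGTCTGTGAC
Snrpn, chr7:60005150-60005449, minus strand: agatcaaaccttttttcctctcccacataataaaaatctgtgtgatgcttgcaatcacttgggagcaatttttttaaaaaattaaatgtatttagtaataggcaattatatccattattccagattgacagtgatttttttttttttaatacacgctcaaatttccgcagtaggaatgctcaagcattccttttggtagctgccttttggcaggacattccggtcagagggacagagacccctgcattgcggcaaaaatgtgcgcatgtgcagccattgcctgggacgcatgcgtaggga
Meg3, chr12:109540746-109541045, plus strand: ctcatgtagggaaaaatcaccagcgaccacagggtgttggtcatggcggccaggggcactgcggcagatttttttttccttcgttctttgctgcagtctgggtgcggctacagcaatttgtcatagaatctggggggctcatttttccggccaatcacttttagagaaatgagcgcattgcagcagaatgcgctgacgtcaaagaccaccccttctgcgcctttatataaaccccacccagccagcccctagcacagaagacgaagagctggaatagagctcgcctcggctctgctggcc

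All 300 bases were covered at Kcnq1ot1 and Peg3, and 147 of them at Dlk1. None were covered at Meg3, nor at the Snrpn start shown, where the peak began just downstream of the window. ZFP57, a zinc finger protein that keeps imprinted control regions methylated, reads the hexamer TGCCGC. On either strand this hexamer stood once in the Snrpn and once in the Meg3 stretch and was not found in the other 3, and 11.6% of all 32817 promoter stretches hold it. AAGATGG, a core of the YY1 motif, was in none of the 5 and in 6.34% of all stretches. The hexamer hits are letter matches only, and no binding was measured.

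Of the 10 genes, 7 showed a broad peak in every library, and Mirg, H19 and Igf2 had none in any library, broad or narrow. Among all annotated genes, 30.8% had a broad peak in all 4. By background knowledge 5 of these 7, Peg10, Kcnq1ot1, Peg3, Dlk1 and Snrpn, are expressed from the paternal copy and 2, Meg3 and Rian, from the maternal copy. When weaker peaks, below 5 in −log10 q, were dropped, 4 genes kept a peak in every library: Peg10, Kcnq1ot1, Peg3 and Snrpn.

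**Figure D1:**
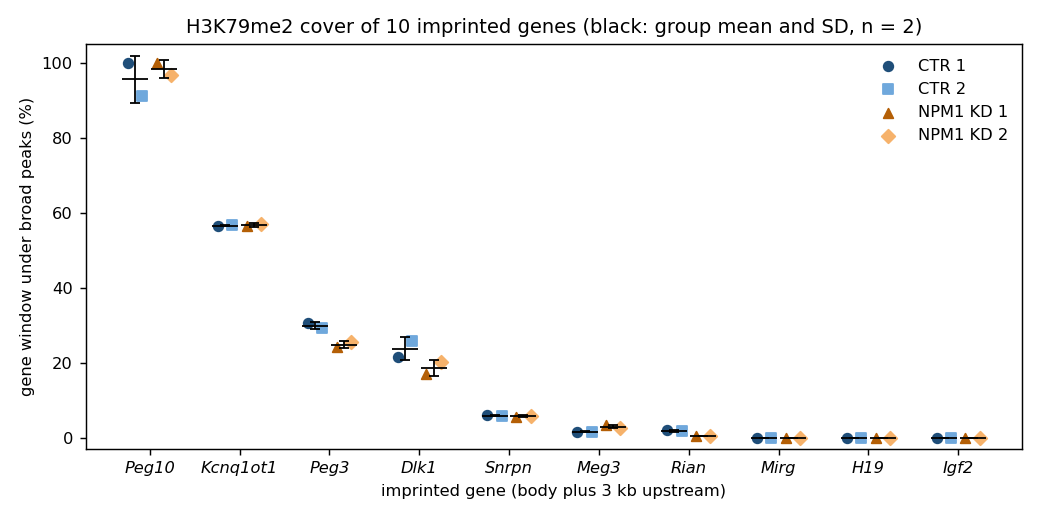
Share of each gene window (body plus 3 kb upstream) under broad H3K79me2 peaks, in percent, with a symbol for each of the 4 libraries and black marks for the group mean and SD (n = 2). Peg10 stands at 91.2% or more in every library, Kcnq1ot1 between 56.4% and 57.0%, and Mirg, H19 and Igf2 at 0.

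Peg10, a retrotransposon-derived gene on chromosome 6 (4747306-4760517, plus strand), was the most fully covered. Its covered share was 100% in CTR 1, 91.2% in CTR 2, 100% in KD 1 and 96.6% in KD 2. The groups overlapped, and the difference of 2.72 percentage points had an exact two-sided permutation p of 1. The mark did not stop at the gene: in CTR 1, KD 1 and KD 2 a single broad peak ran from about 30 kb upstream to 12.7 to 13.5 kb downstream of the start. Upstream of Peg10 lies Sgce, epsilon-sarcoglycan, which starts 99 bp away and is read in the opposite direction. In CTR 2 the domain was split, with no broad peak from 0.663 to 2.09 kb. The narrow lists of all 4 libraries broke at the start itself and again near 2 kb and 5 kb.

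Kcnq1ot1 on chromosome 7 (143203458-143296549, minus strand) carried the longest uninterrupted stretch. The main broad peak began at −1.13 to −1.70 kb from the start and ended 51.9 to 53.2 kb into a gene of 93.1 kb, so the far part of the gene carried no peak. The covered share was 56.4% in CTR 1, 56.6% in CTR 2, 56.4% in KD 1 and 57.0% in KD 2. The groups overlapped and differed by 0.211 points (exact two-sided permutation p = 0.667). The gene lies within Kcnq1, a potassium channel gene on the other strand, whose start is 190 kb away. The Kcnq1 window was covered to between 16.7% and 16.9%, by the same number of bases as that of Kcnq1ot1 in each library. Its cover was thus the Kcnq1ot1 domain, and no broad peak lay elsewhere in the Kcnq1 window, its start included.

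Snrpn, a spliceosome protein gene on chromosome 7 (59982495-60140219, minus strand), has an annotated start far upstream of its usual one, and no peak was found there. The main broad peak began 135 kb into the annotated gene, between −86 and +48 bp of the start of Snurf, which shares its transcript with Snrpn. It ended 9.23, 9.25, 8.78 and 9.37 kb behind that start in CTR 1, CTR 2, KD 1 and KD 2. The covered share of the long window was 5.97%, 5.73%, 5.47% and 5.83% in the same order, with overlapping groups (exact two-sided permutation p = 0.667).

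**Figure D2:**
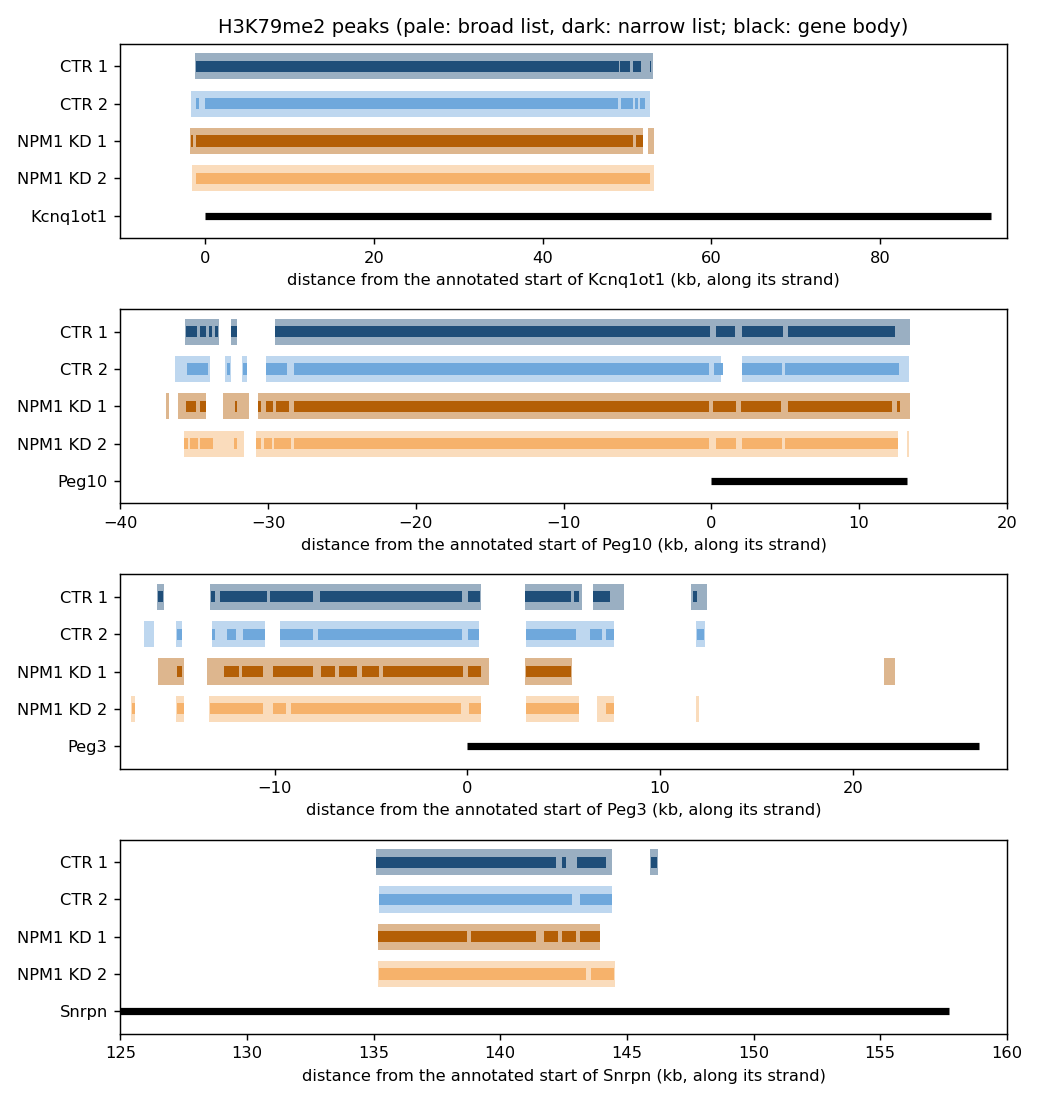
Broad (pale) and narrow (dark) H3K79me2 peaks of the 4 libraries at Kcnq1ot1, Peg10, Peg3 and Snrpn against the distance from the annotated start in kb along the gene's strand, with the gene body in black. At Kcnq1ot1 the domain ends near 52 to 53 kb in every library, and at Snrpn it begins near 135 kb.

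Peg3 on chromosome 7 (6703892-6730431, minus strand), a zinc finger gene, was covered in pieces. A broad peak that lay mostly over Usp29, which starts 147 bp away on the other strand, reached 0.695 kb into Peg3 in CTR 1, 0.622 kb in CTR 2, 1.15 kb in KD 1 and 0.723 kb in KD 2. A gap of about 2 kb followed, and a second broad peak began at 3.00 to 3.06 kb in all 4 libraries. This peak ended at 5.97 kb in CTR 1, 7.60 kb in CTR 2, 5.44 kb in KD 1 and 5.79 kb in KD 2. A separate broad peak followed at 6.54 to 8.12 kb in CTR 1 and at 6.74 to 7.62 kb in KD 2, and KD 1 had no cover there. Both CTR libraries and KD 2 also had weak broad peaks further on, near 12 kb, and KD 1 had one at 21.6 to 22.2 kb. In total the window was covered to 30.6% and 29.2% in CTR and to 24.1% and 25.5% in NPM1 KD. The groups did not overlap, and their mean covered lengths of 8824 ± 288 bp for CTR and 7331 ± 290 bp for the knockdown (SD, n = 2) differed by more than the spread within the groups.

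Dlk1, a Notch-like transmembrane protein gene on chromosome 12 (109452823-109463336, plus strand), had 1 broad peak over its start in every library. The broad peak ended 2.82 kb behind the start in CTR 1 and 2.80 kb in CTR 2, but 2.14 kb behind it in both NPM1 KD libraries. In the narrow lists the main peak ended at 2.12 kb in CTR 1, 2.28 kb in CTR 2, 2.12 kb in KD 1 and 2.11 kb in KD 2. CTR 1 had a separate narrow peak at 2.39 to 2.74 kb, with 25 fragments at its summit, where 22 were the fewest called. The upstream edge varied within the groups, at −97 and −699 bp from the start in CTR and at −153 and −573 bp after knockdown. The covered share was 21.6% in CTR 1, 25.9% in CTR 2, 17.0% in KD 1 and 20.1% in KD 2, and the KD libraries were both below the CTR libraries. The enrichment of this peak was moderate, with a −log10 q of 5.92 and 5.58 in CTR and of 4.71 and 3.21 in NPM1 KD. A cut at 5 therefore keeps the gene in the broad lists of CTR and drops it in those of NPM1 KD. In the narrow lists the strongest Dlk1 peak had a −log10 q of 16.3 in CTR 1, 18.8 in CTR 2, 19.1 in KD 1 and 6.22 in KD 2. All 4 lie above 5, and KD 1 stood above both CTR libraries.

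Behind Dlk1 the noncoding part of the cluster carried little of the mark. From the start of Dlk1 to the end of Mirg, 297 kb, broad peaks covered 4.92 kb in CTR 1, 4.29 kb in CTR 2, 3.88 kb in KD 1 and 3.25 kb in KD 2. More than 2 kb of this was the Dlk1 peak itself in each library. Of the 66 microRNA genes and 23 snoRNA genes annotated in this span, 0 of each lay under a broad peak of any library. These include the 21 microRNA genes in the Mirg window and the 13 snoRNA genes in the Rian window.

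Meg3 (109541001-109571726 on chromosome 12, plus strand) had no peak at its start, and its few peaks were short and weak. A peak 7.4 to 8.0 kb behind the start was in all 4 broad lists, and a peak near 5.4 kb was in CTR 2, KD 1 and KD 2. The bases shared by all 4 libraries overlapped no annotated exon of Meg3 and form a stretch of 269 bases with 5 CpG dinucleotides, shown because it is the only part of the 3 noncoding genes Meg3, Rian and Mirg under a peak in every library.
Meg3 stretch, GRCm38.p6, chr12:109548561-109548829, plus strand: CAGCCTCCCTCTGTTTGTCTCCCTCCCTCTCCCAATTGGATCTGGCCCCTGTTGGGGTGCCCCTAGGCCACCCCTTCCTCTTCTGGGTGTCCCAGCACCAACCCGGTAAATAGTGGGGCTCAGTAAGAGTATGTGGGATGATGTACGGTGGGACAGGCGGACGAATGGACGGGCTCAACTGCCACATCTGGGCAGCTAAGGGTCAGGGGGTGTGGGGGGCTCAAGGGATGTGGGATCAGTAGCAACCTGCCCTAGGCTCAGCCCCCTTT

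In Meg3 the broad peaks summed to 539 bp for CTR 1, 481 bp for CTR 2, 1087 bp for KD 1 and 891 bp for KD 2. The KD libraries were both above the CTR libraries, at 2.93% ± 0.411 of the window against 1.51% ± 0.122 (SD, n = 2). The highest narrow summit held 33 fragments in CTR 1, 20 in CTR 2, 26 in KD 1 and 34 in KD 2. Over the background these are 2.64-, 2.43-, 2.70- and 2.74-fold, and their 95% exact Poisson intervals overlapped in all 4 libraries.

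Rian (109603940-109661716 on chromosome 12, plus strand), host of a snoRNA cluster, had scattered peaks that differed in place from library to library. There were 4 broad peaks in CTR 1, 2 in CTR 2 and 1 in each NPM1 KD library, with a −log10 q of 2.19 or less. Their summed length was 1165 bp for CTR 1, 1011 bp for CTR 2, 232 bp for KD 1 and 220 bp for KD 2. The groups did not overlap, and KD 2 had no narrow peak in the window. Summits held 17 to 28 fragments, close to the smallest pileup that was called in each library, which was 22, 16, 18 and 22 fragments in CTR 1, CTR 2, KD 1 and KD 2.

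**Figure D3:**
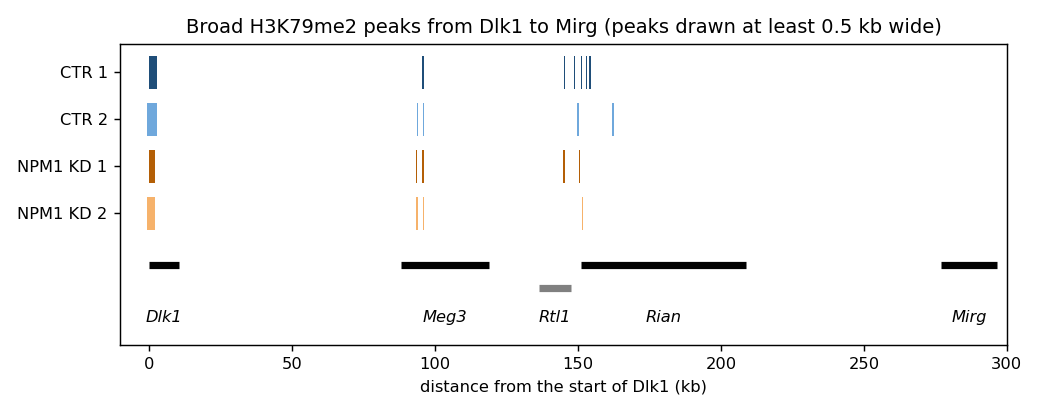
Broad H3K79me2 peaks of the 4 libraries from Dlk1 to Mirg against the distance from the start of Dlk1 in kb, with genes of the plus strand in black and Rtl1 of the minus strand in grey. All libraries share the Dlk1 peak and a peak in Meg3 and have none over Mirg.

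H19, a maternally expressed noncoding RNA gene (chromosome 7, 142575529-142578143), and Igf2, the paternally expressed growth factor gene beside it (142650766-142666816), were empty in all 8 lists. The nearest broad peak to the H19 window was 32.2 to 34.4 kb away, and that to the Igf2 window 107 to 110 kb. Th, tyrosine hydroxylase, close to Igf2, was covered to 9.87%, 6.86%, 7.02% and 2.1% in the same order of libraries. Mirg on chromosome 12 (109729764-109749460), host of microRNAs, was 112 to 123 kb from the nearest broad peak. A window without a peak was below the calling threshold of that library, which does not show that the mark was absent.

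Between the groups, 3 of the 7 genes with any peak, Dlk1, Peg3 and Rian, had both NPM1 KD libraries below both CTR libraries in covered length, whereas 3.14% of all genes tested did so. Only Meg3 had both NPM1 KD libraries above both CTR libraries, against 38.7% of all genes tested. The other 3 overlapped. The median change of log2(covered bp + 1000) was −0.05 over the 7 genes and 0.06 over all genes. The broad lists as a whole covered 236 and 223 Mb in CTR and 253 and 244 Mb after knockdown. In the narrow lists Dlk1, Peg3 and Rian again lay below, where 4.44% of all genes did, and Meg3, Kcnq1ot1 and Peg10 lay above, where 35.9% did. With 2 libraries against 2 the exact permutation test cannot go below p = 0.33, which is the value of each gene whose groups did not overlap.

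limma, which estimates the spread over all genes, was fitted to log2(covered bp + 1000) with Benjamini-Hochberg adjustment. It called 5 of 18781 genes, 0.0266%, all with more cover in NPM1 KD, and 2476 genes had an unadjusted p under 0.05. With the replicate number as a block, which pairs libraries of the same number, it called 0 genes. None of the 10 imprinted genes was called, and 3 of them had an unadjusted p under 0.05. Rian differed by −0.77 (SE 0.05, adjusted p = 0.168 by limma). Meg3 differed by 0.40 (SE 0.07, adjusted p = 0.292 by limma) and Peg3 by −0.24 (SE 0.04, adjusted p = 0.295 by limma). Dlk1 differed by −0.26 (SE 0.12, adjusted p = 0.510 by limma). The size depends on the settings: with a pseudocount of 200 bp Rian stood at −1.59 and Meg3 at 0.74, and without CTR 2 Dlk1 stood at −0.16. With the block the unadjusted limma p under 0.05 were those of Dlk1 (0.00676), Rian (0.00807) and Meg3 (0.0200), while Peg3 went from 0.0174 to 0.0764, and no adjusted p of the 10 genes was below 0.260. When the gene body alone was counted, without the 3 kb upstream where the edge of the Dlk1 peak varied, Dlk1 was called with a log2 difference of −0.28 (adjusted p = 0.0242 by limma). That call rests on far edges of the broad peaks that were nearly identical within each group. Of all genes, 11.7% had no spread within either group, which limma's model of the spread does not describe.

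The height of the mark was compared by the highest fold over background among the peaks that overlap each window. Such a peak can reach beyond the window and into a neighbouring gene. By the mean fold of broad peaks, Kcnq1ot1 stood at 7.39 in both CTR libraries and at 6.54 and 6.39 in NPM1 KD, and Snrpn at 4.58 and 4.52 in CTR and 3.94 and 4.05 in NPM1 KD. Of the 7 genes, 5, these with Peg3, Dlk1 and Rian, had both NPM1 KD libraries below both CTR libraries, and 38.8% of all genes with a broad peak in all 4 libraries did so. Meg3 was above, as were 10.1% of all genes. Fold depends on the efficiency of each precipitation, and its median log2 difference over all genes was −0.06 in the broad lists, so ranks within each library were compared as well. The lists differ in length, from 34845 broad peaks in CTR 2 to 48764 in CTR 1, and the rank of a weak peak shifts with the number of peaks listed below it.

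The summits of the narrow peaks gave a partly different picture. Kcnq1ot1, Snrpn and Peg3 had both NPM1 KD libraries below both CTR libraries in fold, Meg3 had them above, and Dlk1 and Peg10 overlapped. The share of all genes ordered in this way is not given for narrow peaks. Their median log2 difference over all genes was −0.09. Snrpn held 136 fragments in CTR 1 (95% exact Poisson interval 114 to 161), 96 in CTR 2 (77.8 to 117), 84 in KD 1 (67.0 to 104) and 111 in KD 2 (91.3 to 134). Over the background these were 10.6- and 11.2-fold in CTR and 8.51- and 8.76-fold in NPM1 KD. The 95% intervals on this fold scale were 8.93 to 12.6 and 9.11 to 13.7 in CTR and 6.81 to 10.5 and 7.22 to 10.5 after knockdown, and they overlapped. At Kcnq1ot1 the highest summits were 13.9- and 15.1-fold in CTR and 13.1- and 10.6-fold in NPM1 KD. There the fold intervals of CTR 2 (12.7 to 18) and KD 2 (8.86 to 12.5) did not overlap, while the other pairs across groups did. At Peg10 they were 14.4-, 15.6-, 16.5- and 13.0-fold in CTR 1, CTR 2, KD 1 and KD 2, without order by group. At Dlk1 KD 2 stood alone at 2.74-fold, below 4.11, 5.32 and 5.01 in CTR 1, CTR 2 and KD 1. These intervals cover counting error only.

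**Figure D4:**
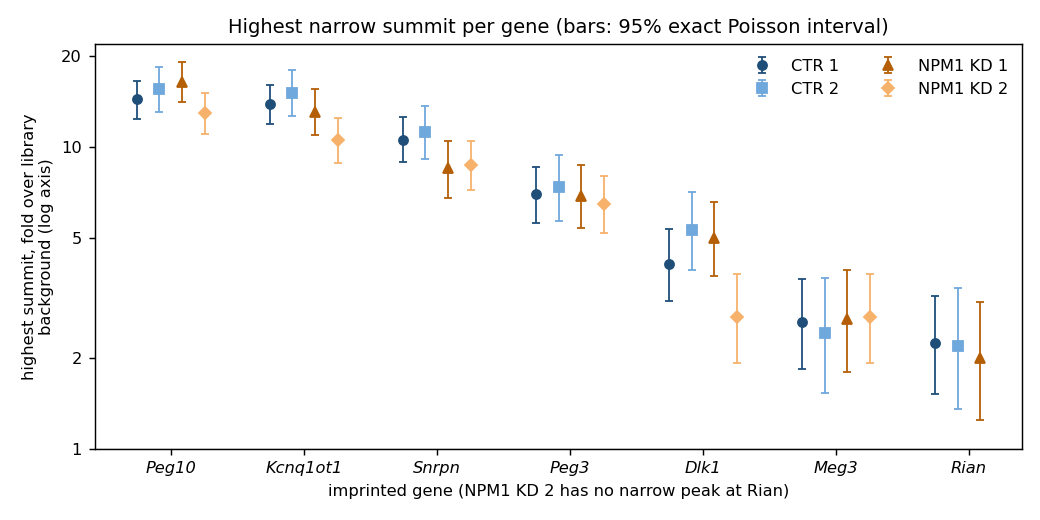
Highest narrow summit of each gene as fold over the library's background (log axis), with a symbol per library and bars for the 95% exact Poisson interval of the fragment count. Peg10, Kcnq1ot1 and Snrpn stand at 8.51-fold or more in every library, and Meg3 and Rian at 2.74-fold or less. The summits shown for Peg10 lie upstream of its start, over Sgce.

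Ranked within each library's own broad list, the highest fold of Kcnq1ot1 was at percentile 94.0, 91.8, 92.5 and 92.7 and that of Peg10 at 91.0, 88.7, 90.8 and 92.0 in CTR 1, CTR 2, KD 1 and KD 2. For Peg10 this is the domain it shares with Sgce. In CTR 2 it is the piece from −30.1 to 0.663 kb, with a fold of 6.36 against 5.44 for the piece inside the gene. Snrpn was at 86.6, 81.7, 83.6 and 85.0 and Peg3 at 85.7, 77.3, 81.5 and 83.2. In these 4 genes CTR 2, the shallowest library, ranked lowest and the groups overlapped. By this rank Meg3 alone had both NPM1 KD libraries above both CTR libraries, against 28.7% of all genes, and Rian alone had them below, against 4.44%. Meg3 was at percentile 63.4 and 33.7 in CTR and 66.5 and 69.3 in NPM1 KD, so the CTR libraries differed from each other far more than CTR 1 did from NPM1 KD. Rian was at 45.5 and 17.6 in CTR and 15.0 and 2.76 in NPM1 KD, so CTR 2 lay far nearer to KD 1 than to CTR 1. In the narrow lists the groups of Meg3 overlapped, and Rian could not be ranked in KD 2. There Peg3 (87.8 and 86.8 in CTR, 88.1 and 88.3 in NPM1 KD) and Peg10 (94.1 and 94.0, 95.4 and 94.4) lay above by small margins. Peg10 was ranked there by the peak upstream of its start, over Sgce.

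A further 60 imprinted genes were looked up for comparison. Of these, 32 had a broad peak in all 4 libraries, 26 had none and 2 had a peak in some, where 30.8% of all annotated genes had one in all 4. Not all of the 32 are separate from the 10 genes or from each other. Kcnq1 was counted only through the Kcnq1ot1 domain and Snurf through the Snrpn peak. Sgce shares a broad peak with Peg10, and Usp29 shares one with Peg3. Other listed genes lie inside or across each other, as named below for the most covered ones. Airn and Igf2r overlap and had the same covered length in every library. In covered length, 11 of the 34 with any peak had both NPM1 KD libraries above both CTR libraries and 2 had them below, where 38.7% and 3.14% of all genes tested did. The narrow lists gave 8 and 1. In the clusters of the 10 genes, Rtl1 had a peak in 3 of 4 libraries, and Dio3, Cdkn1c, Phlda2, Slc22a18, Ascl2, Ins2, Igf2os, Ndn, Magel2, Peg12, Atp10a, Zim1, Pon2, Pon3, Asb4 and Calcr had none. Cdkn1c, Phlda2, Slc22a18 and Ascl2 lie in the cluster that Kcnq1ot1 silences on the paternal copy. In the same cluster Cd81 was covered to between 83.8% and 97.4% and Tssc4 to between 53.2% and 66.4%.

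Around Snrpn, Snurf was covered to between 69.8% and 74.3%, Mkrn3 to between 46.5% and 47.2%, and the long host transcript Snhg14 to between 1.44% and 1.60%. Ube3a, the ubiquitin ligase gene at the far end of the cluster, was covered to 81.1% and 80.2% in CTR and 82.2% and 83.7% in NPM1 KD. Beside Peg3, Usp29 was covered to between 6.20% and 8.24%, while Zfp264 was at 49.2% and 50.8% in CTR and 47.3% and 45.8% in NPM1 KD. Begain in the Dlk1 cluster was covered to between 2.85% and 10.2%.

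In the Peg10 cluster, Pon2, Pon3, Asb4 and Calcr are among the genes without a peak. Ppp1r9a, which encodes neurabin, an actin-binding scaffold, was covered to 23.8% and 23.2% in CTR and to 41.8% and 41.7% in NPM1 KD, a log2 difference of 0.82 (SE 0.02, adjusted p = 0.0958 by limma). Sgce was covered to 50.3% and 48.3% in CTR and to 57.2% and 60.6% in NPM1 KD (adjusted p = 0.297 by limma). Both lay above CTR without overlap and neither passed the threshold of 0.05. Casd1 was at 17.4% to 18.5% with overlapping groups.

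Outside these clusters the most covered genes were Zrsr1, Nespas, Mcts2 and Nnat, tied at 100% in all 4 libraries. Zrsr1 lies inside Commd1 (74.8% to 84.1% covered), Mcts2 inside H13 (81.3% to 90.2%) and Nnat inside Blcap (69.6% to 71.2%). Nespas overlaps Gnas (68.0% to 72.6%). This cover can thus not be given to the shorter genes alone. The least covered with a peak in all 4 were Airn, a noncoding RNA antisense to Igf2r, at 2.02% on average, Igf2r at 2.73% and Trappc9 at 7.21%. Ddc, the DOPA decarboxylase gene beside Grb10, is named because it alone among these imprinted genes was called, after its values were seen. It was listed at 0 bp in both CTR libraries and at 3937 and 4043 bp in NPM1 KD. It thus entered the fit only through the group in which it was high, and its p is not given. The narrow lists, the fit with the replicate block and every fit that left out 1 library called 0 genes, so this call was lost in each of them.

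**Figure D5:**
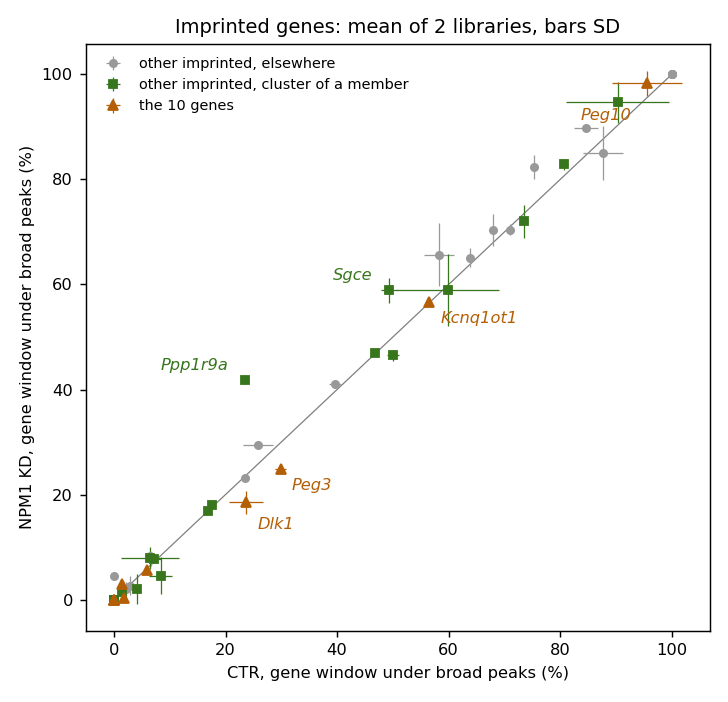
Mean covered share in NPM1 KD against that in CTR (percent of the window, bars SD, n = 2) for the 10 genes, other imprinted genes of their clusters and imprinted genes elsewhere. Peg3 and Dlk1 lie below the line of equal cover, and Ppp1r9a, at 23.5% in CTR and 41.8% in NPM1 KD, lies furthest above it.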

How the data were processed

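H3K79me2 was measured in 4 libraries, and the 2 pooled inputs were not analysed here. Per the submitters' processing notes and the methods, reads were trimmed with Trimmomatic 0.38 and aligned to mm10 with Bowtie2 2.3.4.1. The authors called peaks in each library with MACS2 (2.2.6 in the processing notes, another version in the methods), and the methods place a mapping quality filter above 5 before peak calling. The deposited lists give per peak a fold over background (a ratio), −log10 p and −log10 q values, and a score that is the scaled −log10 q and was not used.

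Covered bp per window, percentiles and edges were computed in Python 3.11.15, and limma 3.58.1 was fitted on log2(covered bp + 1000) over all genes with a covered base, with a threshold of 0.05. Exact permutation tests were two-sided. Summit pileups were recovered from fold and p by the Poisson model and were whole within 0.1 for 99.996% or more of narrow peaks. Scripts were tested on simulated data, where limma with the genes' own spreads made slightly more false calls than its nominal rate. The genes, lists and tests were chosen with earlier results of these data known. All 10 genes were named, with the other imprinted genes of their clusters and, of the rest, the 3 most and 3 least covered. Listed genes that overlap the most covered ones are named beside them. Of 62 other imprinted genes listed, 2 had no symbol in the annotation. Replicates came from separate passages and transfections, so replicate numbers may mark shared batches. The deviations of same-numbered libraries correlated at 0.195 over genes. Of the neuroblast marker list, 2 genes are given as examples and no count is given, because some listed genes are not reported here.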

Additional observations from a re-analysis of the deposited data

How the results depend on the processing

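The count of 3 genes with both NPM1 KD libraries below CTR stayed at 3 in the narrow lists, with the gene body alone and with equal list size. It fell to 2 when only peaks at or above 5 in −log10 q were kept, where Rian had no covered base. The count of 32 other imprinted genes with a peak in all libraries fell to 28 at that limit. It stayed at 32 in the narrow lists and with the gene body alone. With 1 library left out the counts were 3 to 4 and 32 to 33, but they cannot fall in that setting. When only peaks at or above 5 in −log10 q were kept, genes with a peak in all libraries fell from 7 to 4 and genes above CTR from 1 to 0. Genes above CTR numbered 3 in the narrow lists and 1 to 2 when 1 library was left out, where this count too cannot fall. The limma count of 5 became 0 in the narrow lists and with lists of equal size, 83 at that q limit, 81 with the gene body alone, 18 without a filter, 22 with a pseudocount of 200 bp, and 0 when genes with no spread were left out, an alternative chosen after seeing the data. Leaving out any 1 library gave 0 calls, where the lone library is assumed to vary like the other group. The replicate block, which pairs libraries of the same number, gave 0 calls, with 3035 genes at an unadjusted p under 0.05. It left the mean differences of the 10 genes as they were. The cause of these changes was not tested.

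Of 56 recomputed differences in covered share 4 reversed. The 56 include those with the replicate block, which cannot change a mean difference here. At the q limit of 5 the differences of Meg3 (1.42 points) and Rian (−1.42 points) became 0, because neither gene kept a peak. These are not counted as reversed. Kcnq1ot1, at 0.211 points, became −0.105 at the q limit of 5 and −0.0483 with the gene body alone, and ranged from −0.089 without KD 2 to 0.510 without KD 1. Peg10, at 2.72 points, ranged from −1.69 without CTR 2 to 7.13 without CTR 1. Of 44 differences in percentile 9 reversed. Snrpn, at 0.151, became −0.714 in the narrow lists and −7.72 with a −log10 q of at least 5, and Peg3, at 0.809, became −6.78 with the latter. With 1 library left out, Dlk1 ranged from −8.04 to 0.332, Kcnq1ot1 from −1.37 to 0.838, Snrpn from −2.30 to 2.60 (−0.563 without KD 2) and Peg3 from −3.39 to 5.01 (−0.0229 without KD 2). The summits at Meg3 and Rian hold 34 fragments or fewer, and the part of depth in their covered length was not tested.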
